A study of Mus musculus with 19 samples.

Results

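Genes of iron handling, with *Lcn2* among them, were followed across genotype and LPS treatment in CD11b+ cells of the mouse brain. The 10 genes are *Lcn2*, *Hamp*, *Slc40a1*, *Fth1*, *Ftl1*, *Tfrc*, *Slc11a1*, *Slc11a2*, *Cp* and *Steap4*, chosen by name among the 56980 genes of the count table, each found under 1 Ensembl identifier. The 19 libraries came from 4 groups of male mice aged 3 to 4 months: wildtype mice given PBS (n = 4), wildtype mice given LPS (n = 5), *Park7*/DJ-1 KO mice given PBS (n = 5) and *Park7*/DJ-1 KO mice given LPS (n = 5). LPS was injected intraperitoneally at 4 µg per g body weight, and cells were taken after 6 h, in all 4 groups, from perfused brains without olfactory bulb and cerebellum. The KO line carries the germline gene-trap allele Park7 Gt(XE726)Byg on a C57BL/6NCrl background, and the controls were wildtype littermates from heterozygous breeding. CD11b+ cells were taken with magnetic beads, which collect microglia together with any other CD11b+ myeloid cell. The question was how these genes respond to systemic inflammation, and whether loss of DJ-1 alters their level or their response.

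Cells take up iron bound to transferrin through the transferrin receptor (*Tfrc*), move ferrous iron out of endosomes through DMT1 (*Slc11a2*) or out of phagosomes through NRAMP1 (*Slc11a1*), store it inside ferritin shells built of heavy (*Fth1*) and light (*Ftl1*) chains, and release it through ferroportin (*Slc40a1*), the only known iron exporter of mammals. Ferroxidases such as ceruloplasmin (*Cp*) and metalloreductases such as STEAP4 change the oxidation state of iron around these steps. Hepcidin (*Hamp*), a peptide hormone made chiefly in the liver, drives ferroportin into degradation. Lipocalin 2 (*Lcn2*) is a secreted protein of innate immunity that binds bacterial siderophores and so withholds iron from bacteria. In inflammation, macrophages are known to retain iron.

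Several of these mRNAs carry iron-responsive elements, hairpins that iron regulatory proteins bind when iron is scarce. Bound in the 5′ untranslated region such a hairpin blocks translation, and bound in the 3′ untranslated region it protects the mRNA from decay. The hairpins are shown because they mark members whose mRNA or translation is known to follow iron itself. The search took a C, a stem of 5 bases, the loop CAGTG followed by A, C or T, and 5 bases pairing with the stem, G with T allowed, on the transcript strand, in 1 canonical GENCODE transcript per gene on GRCm39. It found 7 hairpins in 4 of the 10 members, each given from 6 bases before the C to 6 bases after the closing stem, 5′ to 3′, with the 6-base loop in capitals.
Fth1, 5′ untranslated region, chr19:9960096-9960124, plus strand: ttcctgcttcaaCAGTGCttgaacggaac
Ftl1, 5′ untranslated region, chr7:45109203-45109231, minus strand: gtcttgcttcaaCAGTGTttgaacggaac
Slc40a1, 5′ untranslated region, chr1:45964625-45964653, minus strand: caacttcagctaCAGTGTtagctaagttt
Tfrc, 3′ untranslated region, chr16:32450037-32450065, plus strand: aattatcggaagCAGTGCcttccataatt
Tfrc, 3′ untranslated region, chr16:32450416-32450444, plus strand: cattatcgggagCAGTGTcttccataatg
Tfrc, 3′ untranslated region, chr16:32450481-32450509, plus strand: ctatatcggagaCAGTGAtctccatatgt
Tfrc, 3′ untranslated region, chr16:32450528-32450556, plus strand: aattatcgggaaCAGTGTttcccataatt
The *Fth1* and *Ftl1* elements were identical at 26 of 29 bases, the *Fth1* and *Slc40a1* elements at 13 of 29. Of 21593 canonical transcripts, 20 (0.0926%) held a match in the 5′ and 93 (0.431%) in the 3′ untranslated region. *Slc11a2* and the other members had no match to these letters. With 1 transcript per gene and a strict pattern, the search can miss elements, so a missing match does not show that a gene lacks one. The counts measure mRNA, so translation through these elements was not seen.

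Total counts per library ran from 11936364 to 22788884, median 17211939. Levels below are in CPM, a gene's count scaled to the TMM-adjusted size of its library, and 3 counts, the limit that a count of 0 allows, stand for 0.139 to 0.256 CPM depending on the library; such limits cover counting error only. *Park7* itself was at 22.3 ± 2.08 CPM (SD, n = 4) in wildtype PBS and 25.3 ± 3.91 in wildtype LPS mice against 1.66 ± 0.962 and 3.45 ± 1.72 in KO mice (n = 5 each), and no KO library reached the lowest wildtype library. Microglial markers were abundant in every library (11 genes, summed 10912 to 41191 CPM), and 10 of the 11 fell after LPS in both genotypes. All 7 monocyte markers rose in both genotypes, from a summed 29.5 to 70.1 CPM in PBS libraries to 201 to 567 CPM in LPS libraries. Of 10 neutrophil markers, 5 rose and 1 fell in wildtype mice, and 6 rose and 1 fell in KO mice; the defining *Ly6g* stayed at or below 1.79 CPM. Choroid plexus (217 to 15316 CPM, mostly *Ttr*), oligodendrocyte (566 to 11445 CPM) and mural cell markers (14.9 to 629 CPM) were present and varied widely between mice of 1 group. In such bulk samples, more cells of a type and more RNA per cell cannot be told apart. Each library is labelled as 1 mouse.

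At baseline the storage genes stood highest. Per kb of exon, the mean level in wildtype PBS mice was 357 CPM for *Ftl1*, 158 for *Fth1*, 66.8 for *Slc11a1*, 29.5 for *Slc40a1* and 7.90 for *Tfrc*, and no 2 neighbours in this order overlapped between mice. *Cp*, *Slc11a2* and *Lcn2* followed at 4.44, 4.27 and 4.12 CPM per kb with overlapping ranges, and *Steap4* (0.367) and *Hamp* (0.153) came last, also with overlapping ranges. After LPS the order in wildtype mice was *Fth1* (604 CPM per kb), *Ftl1* (420.5), *Lcn2* (281), *Slc11a1* (58.8), *Steap4* (58.8), *Tfrc* (35.5), *Cp* (31.6), *Slc11a2* (26.6), *Slc40a1* (2.66) and *Hamp* (0.263). Here only *Lcn2* and *Slc11a1*, *Slc11a2* and *Slc40a1*, and *Slc40a1* and *Hamp* were neighbours whose ranges did not overlap. KO mice had the same first 5 places as wildtype mice in both treatments. The length used is that of all annotated exons of a gene together, 3520 bases for *Fth1* and 1341 for *Ftl1*, and the order depends on it. In CPM without division by length, *Fth1* (mean 557) was above *Ftl1* (479) in wildtype PBS mice, with overlapping ranges.

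**Figure D1:**
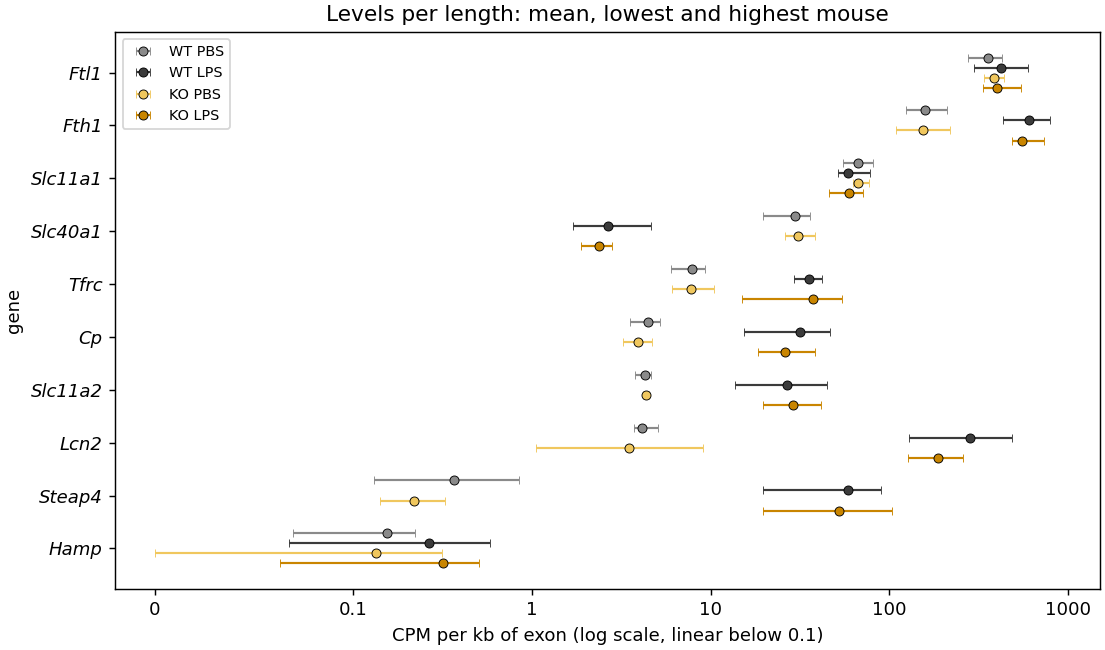
Level of each of the 10 genes on the horizontal axis, in CPM per kb of exon on a log scale that is linear below 0.1, for the 4 groups (points, means; bars, lowest to highest mouse). After LPS Ftl1 stays near its PBS level, Fth1 and Lcn2 move up, Lcn2 overlapping with Ftl1 in wildtype but not in KO mice, and Slc40a1 drops from 29.5 to 2.66 CPM per kb in wildtype mice.

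In wildtype mice, 7 of the 9 members that could be tested passed adjusted p under 0.05 and an absolute log2 fold change of at least 0.5 after LPS: *Steap4*, *Lcn2*, *Cp*, *Slc11a2*, *Tfrc* and *Fth1* rose and *Slc40a1* fell. *Ftl1* and *Slc11a1* did not pass. Of all 18739 genes tested, 18.4% passed as higher and 17.4% as lower. In KO mice the same 7 members passed in the same directions, against 20.1% higher and 19% lower of all genes. The median log2 fold change of the 9 members was 2.17 in wildtype and 2.26 in KO mice, beside -0.06 and -0.01 over all genes. The LPS and PBS mice did not overlap for these 7 members in either genotype, which held for 37.8% of all genes in wildtype and 32.8% in KO mice. Hamp was too low to enter the fit. All tests across genes are edgeR quasi-likelihood tests with Benjamini-Hochberg adjustment.

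**Figure D2:**
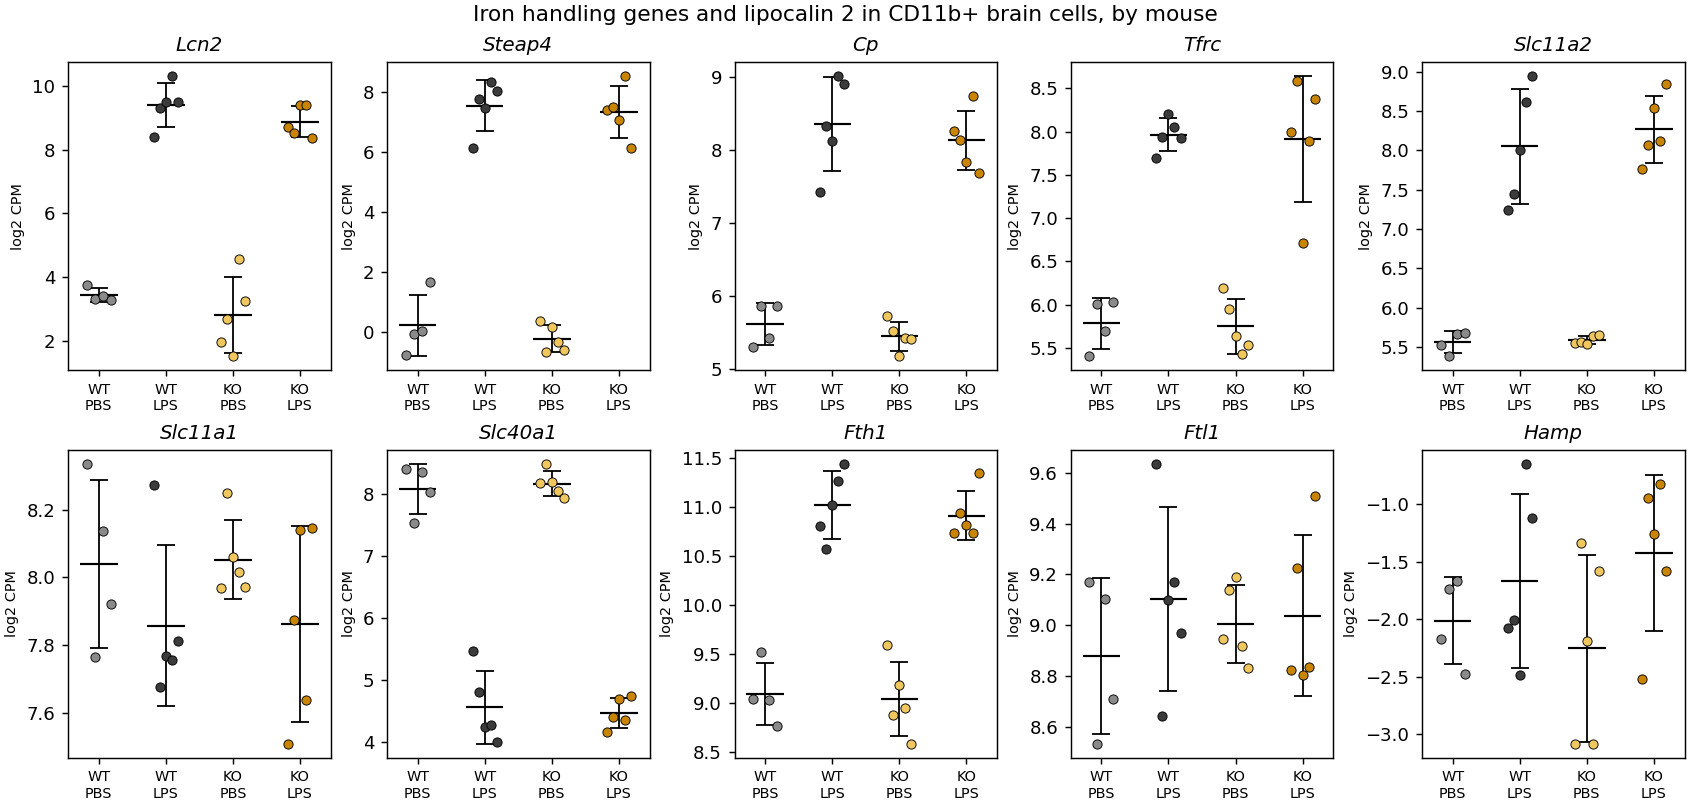
Level of each gene in each mouse as log2 CPM (a prior count of 2 added), by group; points are mice, lines the group mean and bars 1 SD, and each panel has its own vertical scale. Mice given LPS lie apart from mice given PBS for Lcn2, Steap4, Cp, Tfrc, Slc11a2, Fth1 and Slc40a1, and overlap with them for Slc11a1, Ftl1 and Hamp.

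*Lcn2* (ENSMUSG00000026822, chromosome 2, 32274645 to 32278264, minus strand) was low in PBS mice and among the most abundant members after LPS. The 4 wildtype PBS mice had 13.3, 9.76, 10.4 and 9.69 CPM and the 5 wildtype LPS mice 337, 633, 718, 1273 and 729 CPM. KO mice had 3.81, 6.37, 2.74, 23.6 and 9.29 CPM after PBS and 416, 368, 679, 673 and 331 CPM after LPS. Every LPS mouse was above every PBS mouse. *Lcn2* rose 68.3-fold in wildtype mice (log2 fold change 6.09, SE 0.59, adjusted p = 1.6e-07) and 53.7-fold in KO mice (5.75, SE 0.53, adjusted p = 5.74e-08). Without KO PBS mouse 4, at 23.6 CPM, the KO value was 88.5-fold. The KO PBS mice were widely spread, with 1 mouse above and 4 below all wildtype PBS mice.

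*Lcn2* is also a granule gene of neutrophils. Of the 10 neutrophil markers *Cxcr2* (a mean of 1.81 CPM after PBS and 32.6 CPM after LPS in wildtype mice), *Mmp8* (6.19 and 41.4 CPM), *S100a8* (20.2 and 93.2 CPM), *S100a9* (9.80 and 42.7 CPM) and *Mmp9* (14.6 and 32.7 CPM) rose in both genotypes, *Retnlg* rose in KO mice, and *Csf3r*, which microglia also express, fell in both. *Ngp* (28.3 and 74.8 CPM), *Camp* (2.25 and 3.43 CPM) and *Ltf*, which is not on that list (21.6 and 25.2 CPM), did not pass. *Ly6g*, at a mean of 0.740 and 0.941 CPM, did not pass either. The part of neutrophils, monocytes or other cell types in the *Lcn2* counts was not tested. *Slc22a17*, the lipocalin 2 receptor, had a mean of 244 ± 146 CPM (SD, n = 4) after PBS and 198 ± 78.4 (n = 5) after LPS in wildtype mice, with wide spread, and did not pass the test (log2 fold change -0.31, SE 0.52). *Bdh2*, an enzyme linked to mammalian siderophore synthesis, and *Ltf*, which encodes the iron binding lactoferrin, did not pass either.

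The 3 protein-coding genes whose pattern over the 19 libraries was most like that of *Lcn2*, by the root mean square difference of centred log2 CPM among 10882 genes with a mean of at least 5 CPM over all libraries, were *Hp*, *Cd300lf* and *Ly6c2*. All 3 were below 5 CPM on average in PBS mice and entered through their level after LPS. *Hp*, which encodes the hemoglobin scavenger haptoglobin, differed by 0.482, *Cd300lf*, an inhibitory receptor of myeloid cells, by 0.585, and *Ly6c2*, one of the monocyte markers above, by 0.620 log2 units. *Hp* went from 3.10 to 161 CPM and *Cd300lf* from 4.39 to 290 CPM in wildtype mice.

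*Steap4* (chromosome 5, 8010260 to 8032214, plus strand) encodes a metalloreductase of iron and copper. It had the highest fold change of the 9 tested genes in both genotypes. The wildtype PBS mice had 0.469, 0.849, 0.920 and 3.04 CPM and the wildtype LPS mice 70.7, 222, 179, 324 and 262 CPM. KO mice had 1.17, 0.508, 1.02, 0.681 and 0.540 CPM after PBS and 172, 182, 136, 373 and 70.0 CPM after LPS. *Steap4* was thus close to the limit of detection in most PBS mice and clearly present in every LPS mouse. It rose 161-fold in wildtype (log2 fold change 7.33, SE 0.64, adjusted p = 4.42e-08) and 239-fold in KO mice (7.90, SE 0.60, adjusted p = 5.48e-09), fold changes that rest on low PBS levels. Without wildtype PBS mouse 4, at 3.04 CPM, the wildtype value was 290.1-fold. Its relatives *Steap1*, *Steap2* and *Steap3* did not pass in either genotype.

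*Cp* (chromosome 3, 20011090 to 20063930, plus strand), the ferroxidase ceruloplasmin, was at 39.5, 58.2, 43.0 and 58.1 CPM in wildtype PBS mice and 172, 321, 281, 518 and 482 CPM in wildtype LPS mice. KO mice had 52.8, 45.6, 36.1, 42.9 and 42.5 CPM after PBS and 308, 281, 229, 427 and 206 CPM after LPS. Groups lay apart within each genotype. *Cp* rose 7.13-fold in wildtype (log2 fold change 2.83, SE 0.29, adjusted p = 2.55e-07) and 6.60-fold in KO mice (2.72, SE 0.26, adjusted p = 1.01e-07). *Cp* overlaps *Hps3* on the opposite strand, and whether the counting used strand is not given in the sources used here. *Hps3* moved the other way, with a log2 fold change of -0.56 in wildtype and -0.66 in KO mice. *Heph*, a related ferroxidase, stayed at means of 5.63 to 7.45 CPM and did not pass.

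Among the LPS mice, wildtype mouse 1 and KO mouse 5 stood apart for both oxidoreductases. *Steap4* was at 70.7 and 70.0 CPM in them against 136 to 373 CPM in the other 8 LPS mice, and *Cp* at 172 and 206 CPM against 229 to 518 CPM. *Lcn2* was also lowest in these 2 LPS mice, at 337 and 331 CPM against 368 to 1273 CPM in the other 8. The same 2 mice had the lowest sums of mural markers (66.2 and 14.9 CPM against 161 to 629) and of choroid plexus markers (1401 and 217 CPM against 4152 to 11362). They also had the highest *Ftl1* (796 and 728 CPM against 399 to 598). Their microglial marker sums (17476 and 17249 CPM) lay near the top of the LPS range. The part of other cell types in the levels of *Steap4*, *Cp* and *Lcn2* was not tested. Without these 2 mice the log2 fold change of *Steap4* was 7.56 in wildtype and 8.12 in KO mice and that of *Cp* 3.01 and 2.83, and 7 of 9 members still passed in each genotype.

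*Tfrc* (chromosome 16, 32427556 to 32451612, plus strand), the transferrin receptor with 4 hairpin matches in its 3′ untranslated region, was at 42.2, 64.1, 51.6 and 65.3 CPM in wildtype PBS mice and 206, 245, 295, 266 and 244 CPM in wildtype LPS mice. In KO mice it was at 73.2, 61.9, 49.5, 42.8 and 46.2 CPM after PBS and 254, 385, 105, 238 and 333 CPM after LPS. KO LPS mouse 3, at 105 CPM, was the lowest LPS mouse and still above every PBS mouse. *Tfrc* rose 4.50-fold in wildtype (log2 fold change 2.17, SE 0.28, adjusted p = 3.89e-06) and 4.81-fold in KO mice (2.26, SE 0.26, adjusted p = 7.03e-07).

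Of the SLC11 family of divalent metal transporters, *Slc11a2* rose after LPS and *Slc11a1* did not pass the test. *Slc11a2* (DMT1, chromosome 15, 100285776 to 100322953, minus strand) was at 45.8, 41.6, 50.7 and 51.0 CPM in wildtype PBS mice and 152, 174, 257, 394 and 493 CPM in wildtype LPS mice. KO mice had 46.8, 47.1, 46.1, 49.7 and 50.0 CPM after PBS and 218, 269, 372, 279 and 459 CPM after LPS. The 9 PBS mice were almost level, and the LPS mice were spread widely above them. *Slc11a2* rose 6.22-fold in wildtype (log2 fold change 2.64, SE 0.30, adjusted p = 9.57e-07) and 6.66-fold in KO mice (2.74, SE 0.27, adjusted p = 1.71e-07). *Slc11a1* (NRAMP1, chromosome 1, 74414303 to 74425448, plus strand), the transporter of macrophage phagosomes, had 323, 217, 281 and 242 CPM in wildtype PBS mice and 309, 204, 218, 216 and 225 CPM in wildtype LPS mice. KO mice had 250, 304, 266, 258 and 251 CPM and, after LPS, 182, 234, 282, 199 and 283 CPM. PBS and LPS mice overlapped in both genotypes. Its log2 fold change was -0.18 in wildtype (95% confidence interval -0.50 to 0.14, adjusted p = 0.373) and -0.17 in KO mice (-0.47 to 0.13, adjusted p = 0.358).

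*Slc40a1* (chromosome 1, 45947211 to 45965683, minus strand), the exporter ferroportin, was the only one of the 9 tested genes that fell. Wildtype PBS mice had 339, 185, 328 and 261 CPM and wildtype LPS mice 43.8, 27.7, 18.7, 19.1 and 15.9 CPM. KO mice had 288, 359, 294, 266 and 244 CPM after PBS and 17.6, 20.9, 25.7, 20.4 and 26.5 CPM after LPS. The highest LPS mouse was below the lowest PBS mouse in each genotype. *Slc40a1* fell by 3.47 on the log2 scale in wildtype mice (SE 0.26, adjusted p = 7.94e-09), so that the PBS level was 11.1-fold higher, and fell by 3.71 in KO mice (SE 0.26, adjusted p = 1.96e-09), 13.1-fold. The gene is known to be expressed by microglia and by border macrophages; border macrophage markers were at a summed 447 to 599 CPM in PBS and 255 to 497 CPM in LPS libraries, and 4 of 7 fell in each genotype. Their part in the fall of *Slc40a1* was not tested.

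**Figure D3:**
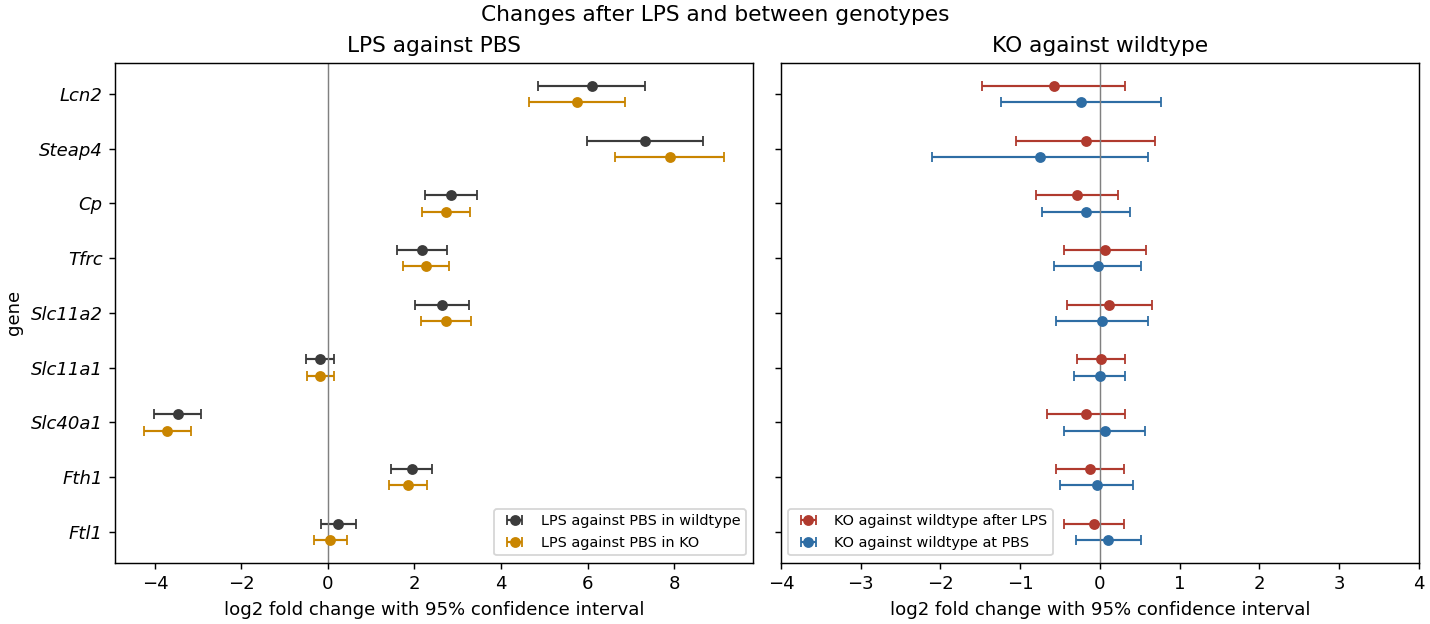
Log2 fold change (horizontal axis) with 95% confidence interval for the 9 tested genes, LPS against PBS in each genotype on the left and KO against wildtype in each treatment on the right. The estimates of both genotypes lie side by side after LPS, from 7.33 and 7.90 for Steap4 to -3.47 and -3.71 for Slc40a1, and every interval on the right includes 0.

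The ferritin genes separated. *Fth1* (chromosome 19, 9957911 to 9962462, plus strand), whose product has the ferroxidase activity of ferritin, was at 529, 738, 525 and 437 CPM in wildtype PBS mice and 1796, 1521, 2076, 2463 and 2780 CPM in wildtype LPS mice. In KO mice it was at 771, 472, 584, 495 and 385 CPM after PBS and 1707, 1959, 1798, 1706 and 2595 CPM after LPS. *Fth1* rose 3.82-fold in wildtype (log2 fold change 1.93, SE 0.23, adjusted p = 1.58e-06) and 3.61-fold in KO mice (1.85, SE 0.21, adjusted p = 7.41e-07), with no overlap between PBS and LPS mice. *Ftl1* (chromosome 7, 45107367 to 45109308, minus strand), the light chain that aids mineral formation, was at 575, 370, 551 and 418 CPM in wildtype PBS mice and 796, 399, 548, 576 and 501 CPM in wildtype LPS mice. KO mice had 493, 563, 584, 484 and 455 CPM after PBS and 453, 598, 446, 456 and 728 CPM after LPS. These ranges overlapped. The log2 fold change of *Ftl1* was 0.24 in wildtype (95% confidence interval -0.17 to 0.64, adjusted p = 0.358) and 0.06 in KO mice (-0.32 to 0.43, adjusted p = 0.837). *Fth1* and *Ftl1* carry nearly the same hairpin in their 5′ untranslated regions.

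The ratio of *Fth1* to *Ftl1* counts within a library does not depend on library scaling. It was 0.920, 1.99, 0.953 and 1.05 in wildtype PBS mice and 2.26, 3.81, 3.79, 4.27 and 5.55 in wildtype LPS mice. In KO mice it was 1.56, 0.837, 1.00, 1.02 and 0.845 after PBS and 3.77, 3.28, 4.03, 3.74 and 3.57 after LPS. Each LPS mouse was above all PBS mice. The ratio was 3.25-fold higher after LPS in wildtype (log2 difference 1.70, exact two-sided permutation p = 0.00794, adjusted over 4 comparisons 0.0159) and 3.58-fold higher in KO mice (1.84, exact permutation p = 0.00794, adjusted 0.0159); 0.00794 is the smallest p these group sizes allow. The KO and wildtype ratios differed by -0.04 on the log2 scale after LPS (exact permutation p = 0.786) and by -0.18 after PBS (exact permutation p = 0.516). Wildtype PBS mouse 2 and KO PBS mouse 1, with ratios of 1.99 and 1.56 against 0.837 to 1.05 in the other 7 PBS mice, also had the highest oligodendrocyte marker sums of the PBS mice, 10041 and 7618 CPM against 1092 to 3154. Without these 2 mice and the 2 LPS mice highest in the same markers the difference was 1.96 in wildtype and 1.98 in KO mice. Pseudogenes named after ferritin, 3 for each gene, held 708 counts beside 407577 for *Fth1* and 342 beside 169082 for *Ftl1* over all libraries. How reads that map to both a gene and a pseudogene were counted is not given in the sources used here. These counts therefore do not show how many such reads there were.

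**Figure D4:**
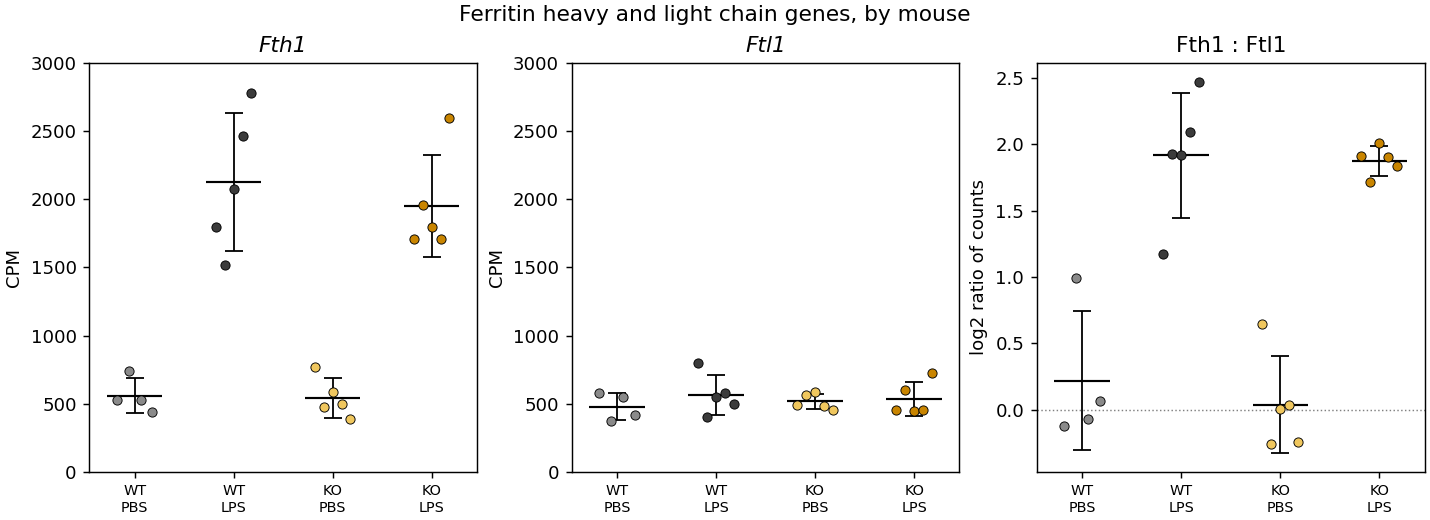
Fth1 and Ftl1 in CPM (left and middle, same vertical scale from 0) and the log2 ratio of their counts (right) in each mouse, by group; lines are means and bars 1 SD. Fth1 and the ratio are higher in every LPS mouse than in any PBS mouse, while Ftl1 lies between 370 and 796 CPM in all groups.

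*Hamp* (chromosome 7, 30641766 to 30643990, minus strand) was near the limit of detection in these cells. The wildtype PBS mice had 2, 3, 3 and 1 counts and the wildtype LPS mice 2, 2, 1, 8 and 4. The KO PBS mice had 0, 6, 2, 0 and 4 counts and the KO LPS mice 1, 7, 5, 8 and 3. The groups overlapped, and in the exact permutation test of log2 CPM LPS mice exceeded PBS mice by 0.34 in wildtype (p = 0.437) and by 0.83 in KO mice (p = 0.111), with adjusted values of 0.611 and 0.444 over 4 comparisons. KO and wildtype mice differed by 0.24 after LPS (exact permutation p = 0.611) and by -0.24 after PBS (exact permutation p = 0.571). A change in *Hamp* of moderate size was not detectable at this depth.

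The promoters of *Hamp* and *Steap4* are shown because they were the only ones among the 8 members with a RefSeq promoter entry (300 bases, 250 of them upstream) that held the letters TTCNNNGAA, a palindromic STAT motif, read on both strands at once; 8.3% of 32851 promoters held them. Of the other motifs searched on both strands in the same windows, 1 strict NF-kB pattern of 10 bases, to which many NF-kB sites do not conform (in 1.47% of all promoters), and the antioxidant response letters TGACNNNGC (12.4%) were in none of the 8 members, *Lcn2* included, which says only that these exact letters are not in these windows, and the BMP response letters GGCGCC (11.9%) were in *Hamp* and in 1 of 2 promoters of *Tfrc*. The entries for *Slc40a1* and *Slc11a2* were missing. Both sequences below are the 250 bases before the start site on GRCm38.p6, 5′ to 3′ on the gene's strand, with the motif in capitals.
Hamp, chr7:30944030-30944279, minus strand: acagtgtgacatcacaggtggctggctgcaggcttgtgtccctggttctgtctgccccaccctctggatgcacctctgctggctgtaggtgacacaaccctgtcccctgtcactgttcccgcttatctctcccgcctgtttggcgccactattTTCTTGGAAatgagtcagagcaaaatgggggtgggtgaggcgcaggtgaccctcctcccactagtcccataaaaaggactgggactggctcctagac
Steap4, chr5:7960222-7960471, plus strand: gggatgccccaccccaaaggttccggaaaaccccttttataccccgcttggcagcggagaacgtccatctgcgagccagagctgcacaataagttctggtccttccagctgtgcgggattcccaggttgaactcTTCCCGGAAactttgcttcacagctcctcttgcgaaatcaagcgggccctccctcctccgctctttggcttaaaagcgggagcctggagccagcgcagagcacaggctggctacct
The match began 97 bases before the start site in *Hamp*, a gene at 8 counts or fewer in every library, and 116 bases before it in *Steap4*, the gene with the highest fold change.

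Between genotypes no member passed an unadjusted p under 0.05 with an absolute log2 fold change of at least 0.5, after LPS or at PBS, and edgeR gave every member an adjusted p of 1 in both. Of all genes, 1.31% passed this rule after LPS and 0.800% at PBS. Without the fold threshold 0 of the 9 members had an unadjusted p under 0.05 in either comparison, against 2.57% of all genes after LPS and 1.04% at PBS. After LPS the log2 fold change, KO against wildtype, was -0.58 for *Lcn2* (95% confidence interval -1.48 to 0.32), -0.29 for *Cp* (-0.80 to 0.23) and -0.18 for *Steap4* (-1.05 to 0.70). For *Fth1*, *Ftl1*, *Tfrc*, *Slc11a1*, *Slc11a2* and *Slc40a1* it lay between -0.18 and 0.12, with intervals that reached no further than -0.67 and 0.66. At PBS it was -0.75 for *Steap4* (-2.10 to 0.60), -0.24 for *Lcn2* (-1.24 to 0.77) and between -0.18 and 0.11 for the other 7. Differences of about 2-fold in *Lcn2* and *Steap4* therefore lie within these intervals, whereas for the 6 genes named together the intervals after LPS end short of that.

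The value for *Lcn2* at PBS depended on single KO mice: without KO PBS mouse 4, at 23.6 CPM, the log2 fold change was -0.96 with an unadjusted p of 0.0243 (edgeR), and it then passed the rule. Without KO PBS mouse 3, the lowest at 2.74 CPM, it was 0.0090, and with any mouse other than mouse 4 left out it did not pass. The value of *Steap4* at PBS changed sign with 1 mouse: without wildtype PBS mouse 4, at 3.04 CPM, the log2 fold change was 0.086 in place of -0.75, and it did not pass with or without that mouse. No member and no gene passed the test of the interaction of genotype and LPS (0.00% of all genes at adjusted p under 0.05). In it 0 of the 9 members and 0.961% of all genes had an unadjusted p under 0.05. The members' interaction estimates ran from -0.34 to 0.57 on the log2 scale. DESeq2 gave 0 members in each of these 3 tests as well.

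Beyond the 10 genes, a list of 49 other genes of iron and heme handling was examined, of which 42 could be tested. After LPS 11 rose and 10 fell in wildtype mice, and 9 rose and 12 fell in KO mice. These are 26.2% higher and 23.8% lower in wildtype and 21.4% and 28.6% in KO mice, not far from the 18.4% and 17.4%, and 20.1% and 19%, of all genes, and no test of that difference was made. With only the groups compared in the fit, 7 rose and 10 fell in wildtype mice. The median log2 fold change of the list was 0.07 in wildtype and -0.01 in KO mice. In both genotypes 9 of the 42 rose and 10 fell, 19 passed in neither, and 4 passed in 1 genotype, *Slc25a28* and *Nfs1* as higher in wildtype and *Blvra* and *Flvcr2* as lower in KO mice. None of the 42 passed between genotypes in either treatment or in the interaction. Under the same search no gene of this list had a hairpin match. Not tested for low counts were *Tfr2*, *Ftmt*, *Hephl1*, *Hjv*, *Tmprss6*, *Erfe* and *Hamp2*.

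Of 13 genes of heme handling, 5 rose in both genotypes and 5 fell in both, against 16.8% of all genes higher and 15.4% lower in both; the roles on the list were not compared by a test. *Hp* rose with a log2 fold change of 5.69 (SE 0.53) in wildtype and 5.40 (SE 0.47) in KO mice. *Hmox1*, the inducible heme oxygenase that frees iron from heme, rose from 74.1 to 188 CPM in wildtype mice (log2 fold change 1.34, SE 0.25) and from 74.9 to 174 CPM in KO mice (1.21, SE 0.23). *Hpx*, the heme scavenger hemopexin, passed at very low levels, 0.0921 CPM after PBS and 0.486 CPM after LPS in wildtype mice. Those that fell were *Slc46a1*, a heme and folate carrier, by 2.26 in wildtype and 2.46 in KO mice, *Blvrb*, a biliverdin reductase, by 1.18 and 1.19, *Cd163*, the hemoglobin-haptoglobin receptor of border macrophages, by 1.17 in both, *Fech*, the last enzyme of heme synthesis, by 0.98 and 1.09, and *Slc48a1*. *Alas1*, which opens heme synthesis, and the heme exporter *Flvcr1* rose.

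Among 8 uptake genes *Slc39a14*, the ZIP14 transporter of iron not bound to transferrin, rose from 36.8 to 729 CPM in wildtype mice (log2 fold change 4.31, SE 0.24) and from 37.9 to 790 CPM in KO mice (4.38, SE 0.21). Its relative *Slc39a8* had log2 fold changes of -0.08 and 0.11 and did not pass. *Lrp1*, a receptor of many ligands that takes up heme bound to hemopexin, fell by 1.29 and 1.30, and *Trf*, transferrin, which in brain is made largely by oligodendrocytes and choroid plexus, also fell. Of 3 storage genes the iron chaperone *Pcbp1* rose and *Ncoa4*, the receptor that sends ferritin to degradation, fell from 97.9 to 52.4 CPM in wildtype and from 98.5 to 55.3 CPM in KO mice. *Pcbp1* had log2 fold changes of 0.52 in wildtype and 0.54 in KO mice. *Pcbp2*, at 0.43 and 0.38 (edgeR adjusted p = 0.00116 and 0.00162), missed only the fold threshold. Of 8 mitochondrial genes *Glrx5*, of iron-sulfur cluster transfer, rose in both genotypes (log2 fold change 1.13, SE 0.16, and 1.10, SE 0.15). The iron regulatory proteins *Aco1* (log2 fold change 0.31 and 0.10) and *Ireb2* (0.06 and 0.11) did not pass, while *Fbxl5*, the iron sensor that targets them for degradation, rose (0.90, SE 0.15, and 0.71, SE 0.14). Of the hepcidin regulators *Bmp2* fell by 1.35 and 1.82 and *Hfe* fell as well.

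**Figure D5:**
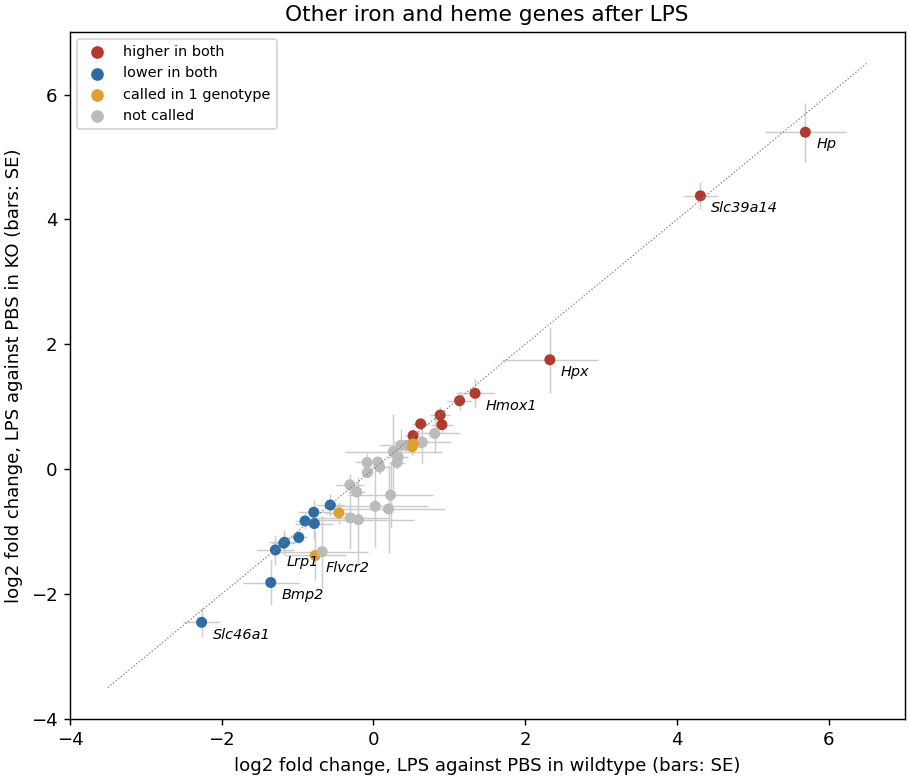
Log2 fold change after LPS in wildtype (horizontal axis) and KO mice (vertical axis) for the 42 tested genes of the iron and heme list, with SE bars; colours mark genes that passed as higher in both genotypes (9), lower in both (10), in 1 genotype (4) or in neither (19), and the dotted line marks equal change. Hp and Slc39a14 lie far above the rest at both axes, and Slc46a1 lowest.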

How the data were processed

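The authors made stranded total RNA libraries after rRNA depletion from bead-isolated CD11b+ cells, trimmed, aligned and counted the paired reads with Cutadapt and STAR 2.7.9a on GRCm39 with the Ensembl 108 annotation, and deposited raw counts per gene for 19 libraries. The strand setting of the counting is not given in the sources used here. Gene names came from GENCODE M39 on GRCm39 (56236 of 56980 identifiers). Groups were taken from the sample labels.

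Genes were kept with edgeR's filterByExpr (minimum count 10, minimum total 15), leaving 18739 genes. Library sizes were TMM-scaled and a quasi-likelihood model with 1 mean per group was fitted to all 19 libraries (edgeR 4.0.16, R 4.3.3). *Hamp* and the ferritin ratio were compared with exact permutation tests. The scripts were tested on simulated data.

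LPS against PBS required adjusted p under 0.05 and an absolute log2 fold change of at least 0.5, KO against wildtype the same fold change with unadjusted p under 0.05, and the interaction adjusted p under 0.05. Named from the iron list were up to 6 genes per direction with the largest change in wildtype mice among those that passed in both genotypes, and further genes were named for their role after their values were seen. The 10 members and the lists were chosen with earlier results of these data known.

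No 2 libraries of 1 group agreed within sampling noise (lowest chi-square per degree of freedom 5.08 over 36 pairs). Alternatives were other filters, DESeq2 size factors, DESeq2 1.42.0, only the groups compared, replicate number as a block, animal number as a covariate, ribosomal and mitochondrial genes left out, other p thresholds, each mouse left out in turn, and, added after the data were seen, groups of libraries left out by their marker sums.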

Additional observations from a re-analysis of the deposited data

Results flagged for a closer look

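Among 40 groups of values checked, those of the 9 tested genes on the log2 CPM scale and of the ferritin ratio in 4 groups each, 2 had a mouse far from the others of its group by Dixon's criterion; chance alone flags about 1 in 20 groups. *Slc11a1* in wildtype LPS mouse 1 was at 8.27 log2 CPM, against 7.67 to 7.81 in the other 4 mice of that group. The log2 ratio of *Fth1* to *Ftl1* counts in wildtype PBS mouse 2 was 0.995, against -0.12 to 0.06 in the other 3. The part of other cell types, whose marker sums set both mice apart, was not tested.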

How the results depend on the processing

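The total counts of members that passed in each comparison, and of iron list genes that passed after LPS, stayed within 1.5 times of the reported ones under every alternative run, DESeq2 included, with 1 exception: at PBS between genotypes 0 to 1 members passed when 1 mouse was left out, the 1 being *Lcn2* without KO PBS mouse 4. With at least 10 counts in every library 6 members passed in each genotype after LPS, *Steap4* being too low to enter. With 1 mouse left out, 7 members passed in each genotype after LPS, and 19 to 22 iron list genes in each. The counts of iron list genes between genotypes and in the interaction were not run under the alternatives. *Hpx* did not pass in wildtype mice without the 4 libraries highest in oligodendrocyte markers (log2 fold change 2.04). Whether replicate numbers pair the mice is not given in the sources used here. Deviations of same-numbered LPS and PBS libraries correlated at a mean of 0.33 in wildtype and 0.25 in KO mice. Those of same-numbered KO and wildtype libraries correlated at a mean of -0.10 after LPS and -0.006 at PBS. Single pairs ran from -0.57 to 0.58, and 1 to 3 libraries per comparison were closest to their own number. An effect shared by same-numbered mice was not tested. With same-numbered mice compared as pairs, the ferritin ratio differed by 1.56 in wildtype (exact sign-flip p = 0.125) and 1.84 in KO mice (p = 0.0625), the smallest p these numbers of pairs allow; the replicate block changed no call among the 9 members, and lowered the iron list in wildtype mice from 21 genes (11 higher, 10 lower) to 18 (9 and 9), with 21 in KO mice in both fits. By direction, the wildtype list had 7 higher and 11 lower with at least 10 counts in every library and 7 and 10 with only the groups compared. Between genotypes the ratio ran from -0.23 to 0.095 after LPS and from -0.33 to 0.079 at PBS with 1 mouse left out.

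Estimates near 0, and that of *Steap4* at PBS, changed sign, and none passed a threshold on either side except *Lcn2* at PBS without KO PBS mouse 4 (-0.96). With 1 mouse left out, KO against wildtype after LPS, the log2 fold change ran from -0.30 to 0.12 for *Slc40a1*, -0.21 to 0.083 for *Ftl1*, -0.11 to 0.27 for *Tfrc*, -0.064 to 0.13 for *Slc11a1*, -0.048 to 0.39 for *Slc11a2* and -0.60 to 0.029 for *Steap4*. At PBS it ran from -0.96 to 0.0090 for *Lcn2*, -0.087 to 0.17 for *Slc40a1*, -0.20 to 0.13 for *Fth1*, -0.16 to 0.068 for *Tfrc*, -0.079 to 0.11 for *Slc11a1*, -0.030 to 0.072 for *Slc11a2* and -1.05 to 0.086 for *Steap4*. That of *Ftl1* after LPS in KO mice ran from -0.079 to 0.12, and was -0.0041 with at least 10 counts in every library. Without the 2 LPS libraries lowest in mural and choroid plexus markers it was -0.078 for *Ftl1* after LPS in KO mice, and between genotypes after LPS 0.054 for *Slc40a1*, -0.096 for *Tfrc* and -0.21 for *Slc11a2*, and at PBS -8.92e-05 for *Slc11a1*. Without the 4 libraries highest in oligodendrocyte markers it was, at PBS, -0.12 for *Slc40a1*, -0.012 for *Ftl1*, -0.095 for *Slc11a1* and -0.049 for *Slc11a2*. *Slc11a1* after LPS was at -0.0074 without the low-count filter and -0.0017 with at least 10 counts in every library, and at PBS at -0.032 and -0.030 under these, and at -0.021 with DESeq2 size factors and with DESeq2. *Slc11a2* at PBS was at -0.0033 with at least 10 counts, -0.085 with the replicate block and -0.13 with animal number as a covariate. The causes were not tested.

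Over all genes, 245 passed between genotypes after LPS and 150 at PBS; without the low-count filter these counts were 854 and 680, with at least 10 counts in every library 111 and 58, with only the groups compared 105 and 145, with the replicate block 232 and 234 and with animal number as a covariate 287 and 253. With 1 mouse left out they ran from 228 to 434 (the latter without KO LPS mouse 5) and from 108 to 186. Depth limits *Hamp*, *Steap4* in PBS mice and *Hpx*, and the spread between mice limits *Lcn2* and *Steap4* between genotypes.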
